A study of Mus musculus with 15 samples.

Results

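The mouse orthologs of 10 genes that lie at human Alzheimer's disease risk loci were followed in the hippocampus of mice with mutant *App*, a human *APOE4* allele, or both. The genes are *Bin1*, *Picalm*, *Cd2ap*, *Ptk2b*, *Inpp5d*, *Plcg2*, *Fermt2*, *Spi1*, *Abi3* and *Cd33*. They were found as the rows of the count table whose Ensembl identifiers carry these symbols, which gave 10 of the 55471 rows. This rule uses the symbols and no measured value, although the symbols were picked with earlier results of these data known. All 10 were among the 16171 genes that passed the filter for expressed genes, which asked for more than 1 CPM, the counts of a gene scaled to a fixed library total, in at least 3 of the 15 libraries.

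The RNA came from whole hippocampi of female mice aged 3 months, with 3 libraries for each of 5 groups sequenced in 2 batches. In the first batch were wild-type (WT) C57BL/6JInv mice, APP-TKI mice homozygous for the *App* NL-G-F allele, and double-mutant (DM) mice homozygous for the same allele and heterozygous for *APOE4*. In the second batch were another WT group and ApoE4 mice, which are heterozygous for *APOE4* and carry normal *App*. Both alleles are knock-ins at the mouse locus, so each is driven by the mouse gene's own promoter in every cell that uses it. DM mice were bred from the APP-TKI and *APOE4* lines. The labels number the libraries of a group without tying each to an animal, so the p-values measure the spread between these libraries.

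The products of these genes act in a few cellular processes. *Bin1*, *Picalm* and *Cd2ap* encode proteins that bend membranes, build clathrin-coated pits and tie endocytosis to actin. *Ptk2b* and *Fermt2* act in kinase signalling and integrin adhesion, and *Inpp5d*, *Plcg2*, *Spi1*, *Abi3* and *Cd33* are used mainly by myeloid cells, which in the brain are microglia and macrophages at its borders. Microglia take up amyloid and lipoproteins that carry apolipoprotein E, and the receptor TREM2 with its adaptor TYROBP signals through phospholipids on which *Inpp5d* and *Plcg2* products act.

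Total counts were 32754717 to 44630808 per library, so the least abundant of the 10 genes, *Spi1*, still had 101 to 142 reads per library, while *Ptk2b* had 20426 to 35325. Markers of brain cell types were expressed, since 10 of 10 excitatory neuron, 10 of 10 astrocyte, 10 of 10 oligodendrocyte and 22 of 22 microglia markers passed the filter. This does not tell hippocampus from other brain regions. None of 10 neutrophil and monocyte markers passed, and their summed level was 0.12 to 0.56 CPM per library. The libraries differed in their share of long noncoding and antisense transcripts, which was 2.26 to 2.48% of counts in 4 libraries of the first batch (the first WT, the first DM and the first and second APP-TKI library), 1.81 to 1.97% in the other 5 of that batch and 1.34 to 1.51% in the second batch. Summed ependymal and choroid plexus markers reached 1950 and 1647 CPM in the highest ApoE4 and WT library of the second batch and stayed at 34.2 to 92.2 CPM in the first. Values below are CPM after upper-quartile scaling, and CPM per kilobase of merged exons (RPKM) where levels of different genes are compared.

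The 10 genes differed widely in level. *Ptk2b*, which encodes the calcium-activated kinase PYK2 of the focal adhesion kinase family, was the highest with a mean of 94.0 RPKM over the 15 libraries (84.3 to 110.6), above 97.9% of all genes tested. *Bin1*, which encodes a membrane-curving BAR domain protein, followed with 71.1 RPKM (62.7 to 78.5), above 96.9% of genes. *Fermt2*, which encodes the integrin activator kindlin-2, stood at 16.1 RPKM, and *Picalm*, an adaptor that recruits clathrin to membranes, at 9.61 RPKM. Neighbours in this order, and *Picalm* and the next gene, did not overlap in any of the 5 groups.

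The other 6 genes lay close together and low. *Cd2ap*, a scaffold between membrane proteins and actin, averaged 2.02 RPKM. *Inpp5d*, the phosphatase SHIP1, averaged 1.68 RPKM, *Abi3*, a subunit of actin-nucleating WAVE complexes, 1.62 RPKM, *Plcg2*, a phospholipase C of immune receptor signalling, 1.35 RPKM, *Cd33*, a sialic acid-binding receptor, 1.21 RPKM, and *Spi1*, the transcription factor that specifies myeloid cells, 1.17 RPKM, the last above only 20.7% of genes tested. Between neighbours in this part of the order the libraries were without overlap in 1 or 2 of the 5 groups only. The order of neighbours is therefore not resolved beyond their spread. Some genes further apart in the order did not overlap over the 15 libraries. By merged exons, the lowest *Cd2ap* library (1.68 RPKM) was above the highest of *Plcg2* (1.62), *Cd33* (1.64) and *Spi1* (1.39). The lowest *Inpp5d* library was likewise above the highest *Spi1* library. The order of the 6 genes also depended on the length used. With the longest transcript as the length, *Cd2ap* was at 5.71 RPKM, *Inpp5d* at 2.58, *Abi3* at 1.68, *Cd33* at 1.64, *Spi1* at 1.55 and *Plcg2* at 1.35.

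**Figure D1:**
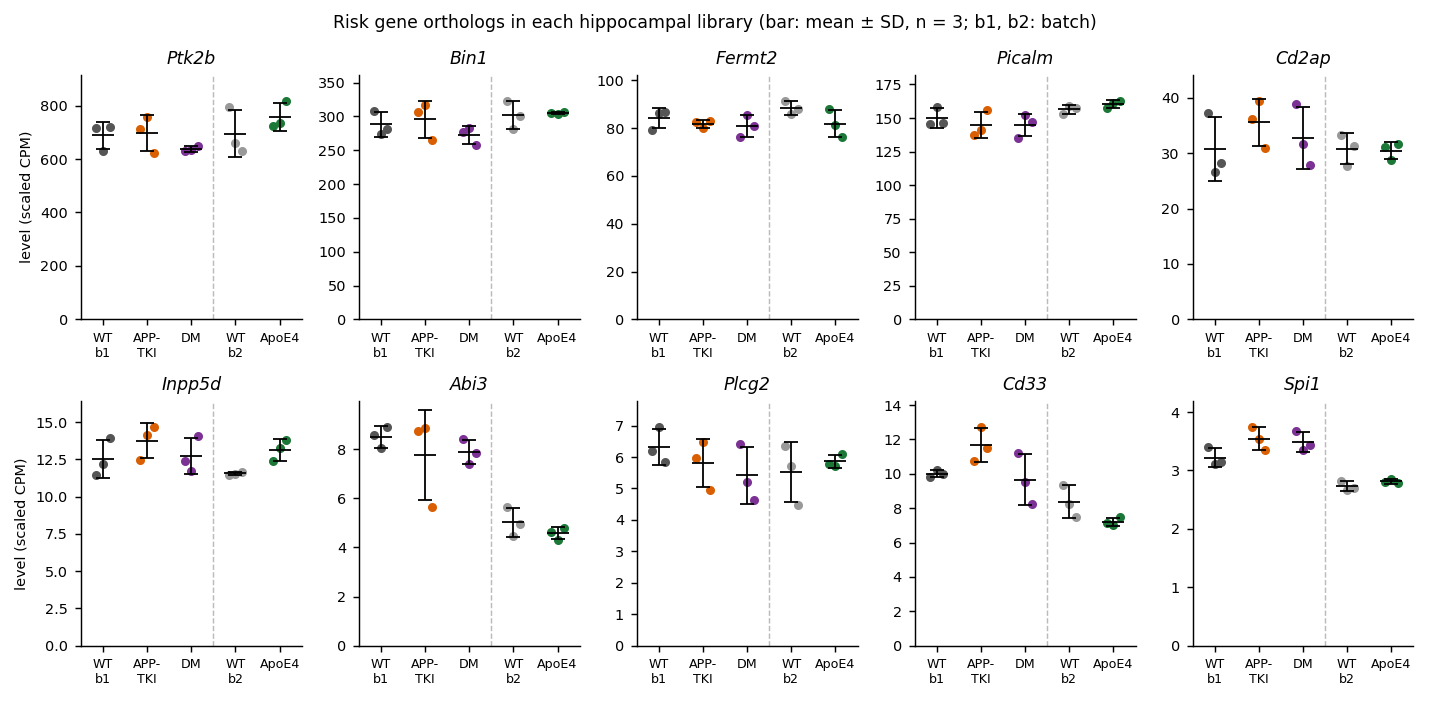
Level of each of the 10 genes in every library (y axis, CPM after upper-quartile scaling, starting at 0; x axis, group, with the dashed line between batches), with bars at the mean ± SD of the 3 libraries of a group. *Cd33* in APP-TKI mice (10.8 to 12.7 CPM) and *Inpp5d* in ApoE4 mice (12.4 to 13.8 CPM) lie wholly above the WT libraries of their batch, and *Abi3* and *Spi1* are lower in all libraries of the second batch than in any of the first. The share of all genes that differ in this way between batches was not counted.

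The promoters of these genes differed in CG dinucleotides, the sites of DNA methylation in vertebrates. RefSeq promoter windows of 300 bases (250 before and 50 after the transcription start, GRCm38.p6) were used for 6 of the 10 genes. No window was used for *Spi1*, *Abi3*, *Ptk2b* and *Bin1*, so their promoters are not described here. *Picalm*, *Cd2ap* and *Fermt2* had 44, 41 and 37 CG dinucleotides, more than 97.8, 96.5 and 94.4% of 32851 promoters, where the median was 7. Among the myeloid genes *Plcg2* had 21, more than 75.2% of promoters, but *Inpp5d* had 6 and *Cd33* had 4, more than 43.6 and 31.4%. The last 100 bases before the start of *Picalm* and *Fermt2*, as examples of the first kind, and of *Inpp5d* and *Cd33*, as examples of the second, show the contrast, with each CG in capitals. They lie at chr7:90130113-90130212 (plus strand), chr14:45530066-45530165 (minus strand), chr1:87620212-87620311 (plus strand) and chr7:43533172-43533271 (minus strand). The RefSeq starts used for *Fermt2*, *Cd2ap* and *Cd33* lie inside the genes as the counts define them, which on the minus strand begin at 45530118, 42876665 and 43544428. The 100 bases shown lie partly within the gene for *Fermt2* and wholly within it for *Cd33*. Whether the *Cd33* window acts as a promoter here was not tested.
*Picalm*: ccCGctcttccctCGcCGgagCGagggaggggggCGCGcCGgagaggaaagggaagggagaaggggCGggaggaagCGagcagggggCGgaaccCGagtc
*Fermt2*: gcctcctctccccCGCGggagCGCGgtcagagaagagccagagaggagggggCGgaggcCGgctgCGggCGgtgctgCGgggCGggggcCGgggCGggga
*Inpp5d*: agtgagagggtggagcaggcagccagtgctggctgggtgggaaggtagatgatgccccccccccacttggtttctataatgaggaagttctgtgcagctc
*Cd33*: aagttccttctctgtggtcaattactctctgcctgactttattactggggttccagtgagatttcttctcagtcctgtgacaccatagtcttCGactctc

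The product of *Spi1* binds purine-rich sites with the core GAGGAA, and this core was searched on both strands of the 6 windows. It was found in *Picalm* at -57 and -31, in *Inpp5d* at -20 and on the minus strand at 4, and in *Cd33* at -226, counted from the transcription start, and 28.3% of all promoters hold it. The longer GAGGAAGT, which contains the core, is held by 3.2% of promoters and was found in *Inpp5d* alone of the 6. It stands in capitals in the 40 bases at chr1:87620272-87620311 (plus strand).
*Inpp5d*: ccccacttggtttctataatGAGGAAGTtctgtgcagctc
These matches describe letters in the window and were not tested for binding.

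Most of the 10 genes have close relatives, several of them far more abundant in these hippocampi. *Abi1* and *Abi2* were at group means of 36.9 to 39.5 and 21.4 to 23.4 RPKM, far above *Abi3* at 1.10 to 2.05. *Plcg1* was at 9.88 to 10.8 RPKM against 1.26 to 1.47 for *Plcg2*, *Inppl1* at 4.02 to 4.61 against 1.52 to 1.81 for *Inpp5d*, and *Siglech*, a microglial relative of *Cd33*, at 4.498 to 5.78 against 0.903 to 1.64 over the libraries. The reverse held for the kinases and kindlins. *Ptk2b* was at 86.1 to 102.5 RPKM against 9.27 to 9.90 for *Ptk2*, its relative FAK, and *Fermt2* at 15.5 to 17.0 against 0.60 to 0.77 for the haematopoietic *Fermt3* and 0.18 to 0.44 for the epithelial *Fermt1*. *Bin1* and its neuronal relative *Amph* were close, at 66.2 to 74.1 and 56.5 to 62.6 RPKM, while *Bin2* of leukocytes was at 1.44 to 2.26. *Snap91*, the neuronal relative of *Picalm*, was at 39.3 to 43.1 RPKM against 9.20 to 10.2, and *Sh3kbp1* at 2.92 to 3.50 against 1.92 to 2.24 for *Cd2ap*. With the longest transcript as the length *Cd2ap* was at 5.71 RPKM, and the family members are not given by that length. The order of *Cd2ap* and *Sh3kbp1* is therefore shown for merged exons only. *Siglece* and *Siglecf* stood at 0.26 to 0.41 and 0.16 to 0.29 RPKM, and *Siglecg*, *Spib* and *Spic* at 0.02 RPKM or less.

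**Figure D2:**
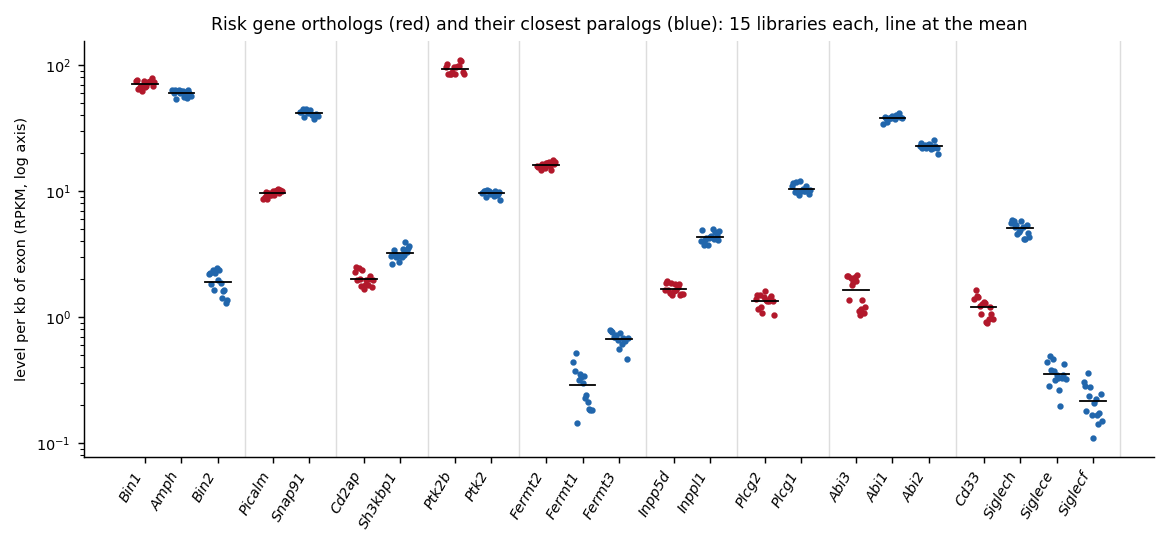
Level per kilobase of exon (y axis, RPKM, log scale) of 9 of the 10 genes (red) and their closest family members (blue) in all 15 libraries (points), with a line at the mean. By merged exon length, *Abi3*, *Plcg2*, *Inpp5d*, *Cd2ap* and *Picalm* lie under every relative shown. *Ptk2b* and *Fermt2* lie above theirs and *Cd33* lies between *Siglech* and *Siglece*. Family members are not given by the longest transcript, which raises *Cd2ap* to 5.71 RPKM.

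Whether mutant *App* alone altered the risk gene orthologs was asked by setting APP-TKI against WT mice. None of the 10 genes passed an adjusted p of 0.1 in the quasi-likelihood test of edgeR, against 1 of all 16171 genes tested (0.00618%), *Mid1*, and none had an unadjusted p under 0.05, against 3.56% of all genes. DESeq2 called 0 of the 10 and 25 of all genes (0.155%), and the robust likelihood ratio test 0 of the 10 and 50 of all genes (0.309%). The quasi-likelihood test called 9 of all genes (0.0557%) with the replicate number as a block and 37 (0.229%) with the noncoding share as a covariate, again with 0 of the 10 among them. The 95% intervals of the 10 genes for the fold change lay between 0.72 and 1.44 in every case, so that a change of 1.5-fold or more was outside the interval of each gene. Of the 10 genes 6 were higher and 4 lower, with a median log2 fold change of 0.03 beside 0.01 over all genes. In bulk tissue, fewer cells of a type and less RNA per cell cannot be told apart.

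*Cd33* had the smallest p of the 10. Its levels were 9.83, 10.2 and 9.98 CPM in the WT libraries and 10.8, 12.7 and 11.5 CPM in the APP-TKI libraries. Every APP-TKI library was above every WT library, as was so in either direction for 8.27% of all genes. The log2 fold change was 0.22 (SE 0.12, 95% interval -0.04 to 0.48, adjusted p = 1.00 by edgeR's quasi-likelihood test).

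The other myeloid genes overlapped between the groups. *Inpp5d* was at 11.4, 12.2 and 14.0 CPM in WT and 12.4, 14.2 and 14.7 CPM in APP-TKI mice, a log2 fold change of 0.13 (SE 0.11). *Spi1* was at 3.40, 3.11 and 3.15 CPM in WT and 3.74, 3.54 and 3.35 CPM in APP-TKI mice, a log2 fold change of 0.14 (SE 0.14). Both groups shared part of their range for these genes. *Abi3* was at 8.58, 8.03 and 8.90 CPM in WT and 8.74, 8.86 and 5.66 CPM in APP-TKI mice, a log2 fold change of -0.13 (SE 0.16) that rested on APP-TKI replicate 3, since without that library it was 0.05. *Plcg2* had a log2 fold change of -0.13 (SE 0.15).

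The membrane and adhesion genes were as close. *Cd2ap* was at 37.3, 26.6 and 28.2 CPM in WT and 36.1, 39.5 and 31.0 CPM in APP-TKI mice, a log2 fold change of 0.21 (SE 0.15, 95% interval -0.11 to 0.53). The highest WT library lay among the APP-TKI libraries. *Bin1* was at 288.3 ± 18.1 CPM in WT and 295.8 ± 27.5 CPM in APP-TKI mice (SD, n = 3), and *Picalm* at 150.0 ± 7.12 and 144.7 ± 9.70 CPM. *Ptk2b* was at 688.2 ± 51.7 and 697.8 ± 67.7 CPM, and *Fermt2* at 84.2 ± 4.30 and 81.8 ± 1.60 CPM. For these 4 genes the log2 fold change was between -0.05 and 0.04, less than its standard error.

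Beside them, 56 further orthologs of Alzheimer risk genes passed the filter, and 0 of these were called. At an unadjusted p under 0.05, 5 were higher and 0 lower in APP-TKI mice, where 354 of all genes were higher and 222 lower. The 4 with the smallest p were *Trem2*, the microglial receptor (log2 fold change 0.33, SE 0.10), *Adamts1*, a secreted protease (0.32, SE 0.12), *Tyrobp*, the adaptor of TREM2 (0.28, SE 0.11), and *Rasgef1c* (0.66, SE 0.26). Of 24 genes of TREM2 and immunoreceptor signalling 0 were called, and 3 were higher and 0 lower at that unadjusted p, *Ptpn6*, a phosphatase recruited by inhibitory receptors, being the third after *Trem2* and *Tyrobp* (0.35, SE 0.16). Of 24 integrin adhesion genes 2 were higher and 0 lower at that p, *Itgb3*, the integrin beta chain of platelets and endothelium (0.69, SE 0.16), and *Tgfb1i1* (0.32, SE 0.13). No gene of clathrin-mediated endocytosis (30 tested) or of WAVE complex and actin regulation (21 tested) reached it. Microglia markers stood at 665 to 748 CPM in sum in WT and 736 to 763 CPM in APP-TKI mice, and 18 of 22 were higher, with a median log2 fold change of 0.10. The part of these markers in the *Cd33* difference was not tested.

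**Figure D3:**
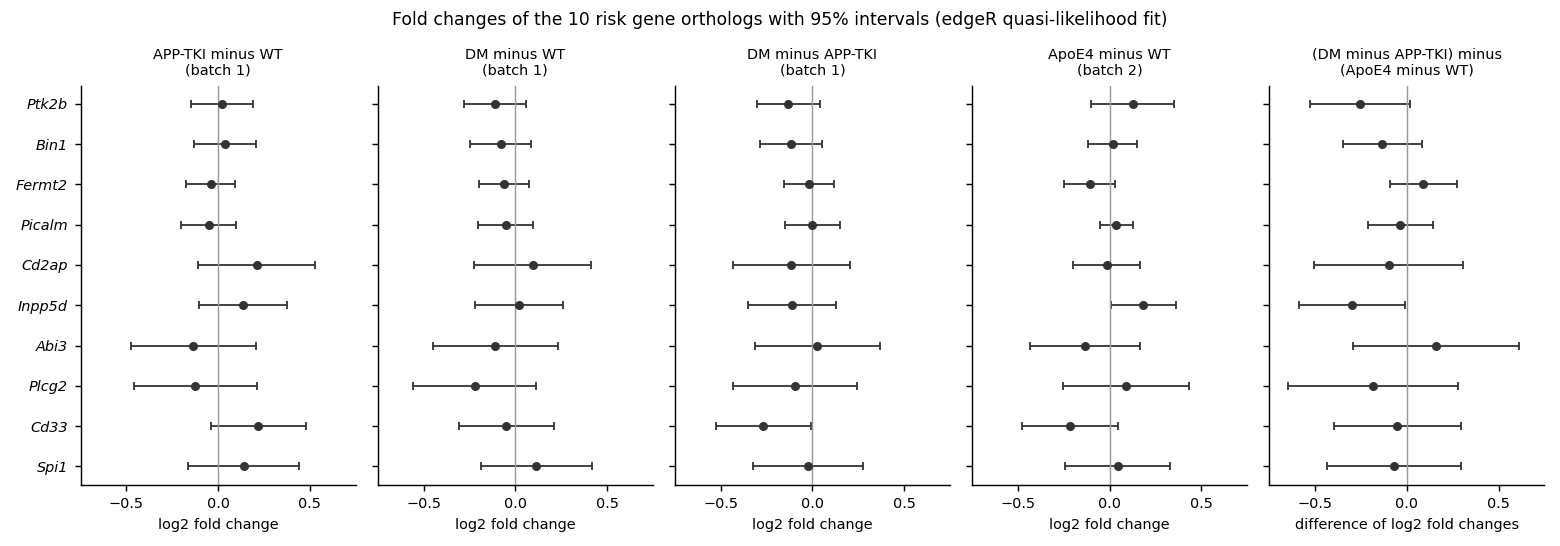
Log2 fold change (x axis) of each of the 10 genes (y axis) in the 4 within-batch comparisons and, on the right, the difference between the effect of *APOE4* with and without mutant *App*, as points with 95% intervals from the quasi-likelihood fit. Intervals leave 0 in 3 places, *Cd33* in DM against APP-TKI mice, *Inpp5d* in ApoE4 against WT mice and *Inpp5d* in the difference, and none of these passed adjustment over all genes.

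In DM against WT mice the combination of both alleles was compared with neither. Again 0 of the 10 genes passed an adjusted p of 0.1, against 2 genes in all (0.0124%), *Mid1* and *Col8a2*, and 0 had an unadjusted p under 0.05, against 4.55% of all genes. With the replicate number as a block, which pairs these libraries, 11 genes were called in all (0.068%) and 0 of the 10. DESeq2 called 50 genes in all (0.309%) and the robust likelihood ratio test 136 (0.841%), and each called 0 of the 10. With the noncoding share as a covariate 41 genes were called (0.254%), and 0 of the 10. The quasi-likelihood count over all genes was 29 without APP-TKI replicate 2, which shares the estimate of the spread, 8 without APP-TKI replicate 3 and 1 to 3 without another library. The intervals of the 10 genes lay between 0.68-fold and 1.33-fold. Of the 10 genes 3 were higher and 7 lower, with a median log2 fold change of -0.06 beside 0.01 over all genes, and no gene had DM and WT libraries without overlap, against 10.4% of all genes.

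The largest difference was that of *Plcg2*, at 6.19, 6.95 and 5.83 CPM in WT and 6.41, 5.20 and 4.63 CPM in DM mice. DM replicate 1 lay within the WT range and the other DM libraries below it. The log2 fold change was -0.22 (SE 0.15, adjusted p = 1.00 by edgeR's quasi-likelihood test). *Ptk2b* had a log2 fold change of -0.11 (SE 0.08), at 716.9, 628.5 and 719.1 CPM in WT and 628.6, 634.8 and 648.4 CPM in DM mice, where a single WT library was as low as the DM libraries. *Spi1* had a log2 fold change of 0.11 (SE 0.14) and *Abi3* of -0.11 (SE 0.16). *Inpp5d*, with 12.4, 11.7 and 14.1 CPM in DM mice, differed by 0.02 (SE 0.11), and *Cd33*, with 11.2, 9.54 and 8.26 CPM, by -0.05 (SE 0.12). *Bin1*, *Picalm* and *Fermt2* had log2 fold changes of -0.08, -0.05 and -0.06 with standard errors of 0.08, 0.07 and 0.06, and *Cd2ap* of 0.09 (SE 0.15).

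Of the 56 further risk gene orthologs 0 were called in DM mice, and 6 were higher and 0 lower at an unadjusted p under 0.05, where 596 of all genes were higher and 140 lower. *Ctsh*, a lysosomal cysteine protease, had the smallest p of them with a log2 fold change of 0.57 (SE 0.12, adjusted p = 0.384 by edgeR's quasi-likelihood test). *Ace*, the angiotensin-converting enzyme, had 0.43 (SE 0.14), *Tyrobp* 0.30 (SE 0.11) and *Trem2* 0.27 (SE 0.10). In TREM2 and immunoreceptor signalling 2 of 24 genes were higher and 0 lower at that p, *Tyrobp* and *Trem2*. *Itgb3* was the only one of 24 integrin adhesion genes to reach it (0.50, SE 0.16) and *Brk1*, a small WAVE complex subunit, the only one of 21 actin genes (0.14, SE 0.06). Of 30 clathrin genes none reached it, with 7 higher and 23 lower. Endothelial markers summed to 69.4 to 76.7 CPM in WT and 86.1 to 112.1 CPM in DM mice, and all 12 were higher with a median log2 fold change of 0.39. Of 9 ependymal and choroid plexus markers 7 were higher, with a median of 0.89. All 4 perivascular macrophage markers that passed the filter, of 10 listed (median 0.31), and all 10 oligodendrocyte markers (median 0.13) were higher. In APP-TKI against WT mice these lists were higher too, in 9 of 9 (median 0.80), 4 of 4 (0.16) and 10 of 10 (0.09). There 11 of 12 endothelial markers were lower. In ApoE4 against WT mice 9 of 9, 1 of 4 and 9 of 10 were higher, and 10 of 12 endothelial markers were lower. Microglia markers summed to 722 to 766 CPM in DM mice, with a median log2 fold change of 0.10. Their part in these differences was not tested.

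DM against APP-TKI mice asked what *APOE4* added where *App* was mutant. None of the 10 genes was called by the quasi-likelihood test, as was true of every gene tested (0%). DESeq2 called 18 genes in all (0.114%) and the robust likelihood ratio test 53 (0.328%), and the quasi-likelihood test with the noncoding share as a covariate 18 (0.111%), with 0 of the 10 among them. At an unadjusted p under 0.05 there was 1, *Cd33*, against 3.78% of all genes. Of the 10 genes 1 was higher and 9 were lower, with a median log2 fold change of -0.10 beside 0.0012 over all genes, and the intervals lay between 0.694-fold and 1.29-fold. No gene had libraries without overlap, against 7.93% of all genes.

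*Cd33* was at 10.8, 12.7 and 11.5 CPM in APP-TKI and at 11.2, 9.54 and 8.26 CPM in DM mice. DM replicate 1 lay within the APP-TKI range and the other DM libraries below it. The log2 fold change was -0.27 (SE 0.12, 95% interval -0.53 to -0.01, adjusted p = 0.987 by edgeR's quasi-likelihood test). The 3 APP-TKI libraries enter this comparison and that with WT mice, so the higher value in the one and the lower value in the other are not independent. *Siglech* had a log2 fold change of -0.19 (SE 0.10), and microglia markers as a whole had a median of -0.01 with 9 of 22 higher. Endothelial markers moved more, with all 12 higher in DM mice, a median of 0.60 and 9 at an unadjusted p under 0.05. Their part in the *Cd33* difference was not tested.

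The other differences were smaller. *Ptk2b* had a log2 fold change of -0.13 (SE 0.08), *Bin1* and *Cd2ap* of -0.12 (SE 0.08 and 0.15), *Inpp5d* of -0.11 (SE 0.11) and *Plcg2* of -0.10 (SE 0.15). *Spi1*, *Fermt2*, *Picalm* and *Abi3* lay between -0.02 and 0.03. Of the 56 further risk gene orthologs 1 was higher and 1 lower at an unadjusted p under 0.05, *Ctsh* (0.27, SE 0.12) and *Wdr81* (-0.19, SE 0.08), against 458 and 153 of all genes. Among the family members *Fermt1* was lower at that p (-0.71, SE 0.29) and among 30 clathrin genes *Fcho1*, which starts clathrin pits (-0.30, SE 0.13). None of the integrin, TREM2 and actin genes reached it.

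In the second batch ApoE4 mice were set against their own WT mice. None of the 10 genes was called by the quasi-likelihood test, nor was any other gene (0%). Of all genes DESeq2 called 48 (0.297%) and the robust likelihood ratio test 125 (0.773%), and 0 of the 10 were among them. At an unadjusted p under 0.05 there was 1 of the 10, *Inpp5d*, against 5.99% of all genes. Of the 10 genes 6 were higher and 4 lower, with a median log2 fold change of 0.03 beside -0.01 over all genes, and the intervals lay between 0.719-fold and 1.35-fold.

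*Inpp5d*, which removes a phosphate from the membrane lipid made by PI3 kinase, was at 11.5, 11.5 and 11.7 CPM in WT and at 12.4, 13.3 and 13.8 CPM in ApoE4 mice. All ApoE4 libraries were above all WT libraries, as was so in either direction for 12.2% of all genes, and the WT libraries had an SD of 0.107 CPM. The log2 fold change was 0.18 (SE 0.08, 95% interval 0.01 to 0.36, adjusted p = 0.761 by edgeR's quasi-likelihood test). WT libraries of the first batch varied more, at 11.4 to 14.0 CPM with an SD of 1.29 CPM. Their levels cannot be set against those of ApoE4 mice, since the batches differ.

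*Cd33* was at 9.37, 8.27 and 7.48 CPM in WT and 7.11, 7.01 and 7.48 CPM in ApoE4 mice. The highest ApoE4 library and the lowest WT library were both at 7.48 CPM, so the groups met at their ends. The log2 fold change was -0.22 (SE 0.11, 95% interval -0.48 to 0.04, adjusted p = 0.761 by edgeR's quasi-likelihood test). *Ptk2b* was at 796.0, 658.3 and 630.4 CPM in WT and 723.5, 733.0 and 818.0 CPM in ApoE4 mice, a log2 fold change of 0.13 (SE 0.10). *Fermt2* was at 91.4, 85.7 and 88.0 CPM in WT and 87.9, 81.4 and 76.3 CPM in ApoE4 mice, a log2 fold change of -0.11 (SE 0.06). The groups overlapped in both genes.

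*Abi3* and *Plcg2* differed by -0.13 (SE 0.13) and 0.09 (SE 0.15) on the log2 scale. The remaining genes, *Bin1*, *Picalm*, *Cd2ap* and *Spi1*, lay between -0.02 and 0.05. *Bin1* was at 304.8, 304.1 and 306.2 CPM in the ApoE4 libraries, the narrowest group of all, with a coefficient of variation of 0.339%. Of the 56 further risk gene orthologs 3 were higher and 1 lower at an unadjusted p under 0.05, *Slc24a4* (0.38, SE 0.12), *Rin3* (0.53, SE 0.20) and *Anxa11* (0.27, SE 0.10) against *Tspan14* (-0.15, SE 0.06). Of all genes 523 were higher and 446 lower at that p. Of 24 integrin adhesion genes *Vcl* was higher (0.21, SE 0.05) and *Itga6* (-0.25, SE 0.10) and *Zyx* (-0.21, SE 0.08) were lower at that p, of 30 clathrin genes *Sh3gl1* and *Dnm2* were higher (0.15 each, SE 0.05 and 0.06), and of 21 actin genes *Wasf2* was higher (0.20, SE 0.08). None of 24 TREM2 and immunoreceptor genes reached it. Microglia markers summed to 622 to 690 CPM in WT and 615 to 660 CPM in ApoE4 mice, with 5 of 22 higher and a median log2 fold change of -0.06, while *Inpp5d* was higher.

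In a fit of all 15 libraries the difference that *APOE4* made on mutant *App* (DM minus APP-TKI) was compared with the one it made on normal *App* (ApoE4 minus WT). Mutant *App* and batch cannot be told apart here, since the first effect comes wholly from the first batch and the second wholly from the other. None of the 10 genes was called by the quasi-likelihood test, nor was any other gene (0%), and 0 of the 10 were among the 26 genes of DESeq2 (0.161%) and the 121 of the robust likelihood ratio test (0.748%). At an unadjusted p under 0.05 there was 1, *Inpp5d*, against 6.85% of all genes. Its log2 fold changes were -0.11 with and 0.18 without mutant *App*, and their difference was -0.30 (SE 0.14, 95% interval -0.59 to -0.01, adjusted p = 0.723 by edgeR's quasi-likelihood test). For *Ptk2b* the fold changes were -0.13 and 0.13 and the difference -0.26 (SE 0.13, 95% interval -0.53 to 0.01). *Cd33* was lower in both settings, by -0.27 and -0.22, and the difference was -0.05 (SE 0.16, 95% interval -0.40 to 0.29). The intervals of this contrast were the widest, between 0.638-fold and 1.53-fold, and 7 of 10 excluded a difference of 1.5-fold. Of the 56 further risk gene orthologs 0 were higher and 4 lower at an unadjusted p under 0.05, *Wdr81* (-0.30, SE 0.11), *Slc24a4* (-0.37, SE 0.14), *Anxa11* (-0.56, SE 0.21) and *Plekha1* (-0.17, SE 0.08), against 656 and 451 of all genes.

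The 5 myeloid genes were set against the microglia markers of the same libraries. Within groups none of them followed these markers closely. With levels centred on the group mean, the correlation with the summed markers over the 15 libraries was 0.45 for *Inpp5d* and 0.43 for *Abi3*. It was 0.19 for *Cd33*, 0.08 for *Plcg2* and -0.03 for *Spi1*. *Inpp5d* was higher with astrocyte (0.613) and perivascular macrophage markers (0.521), and *Abi3* with red blood cell (0.609) and excitatory neuron markers (0.549). *Fermt2* (0.469) and *Ptk2b* (0.426), which are not of the myeloid genes, were as high with microglia markers. The values are therefore not particular to microglia. The summed level of the 5 genes was 5.59 to 5.93% of that of the 22 microglia markers in WT mice of the first batch, 5.45 to 5.995% in APP-TKI and 4.99 to 5.68% in DM mice. In the second batch it was 4.87 to 5.25% in WT and 4.95 to 5.57% in ApoE4 mice. The log2 of this ratio differed by -0.02 between APP-TKI and WT mice, by -0.13 between DM and WT mice, by -0.11 between DM and APP-TKI mice and by 0.06 between ApoE4 and WT mice. The pooled SD of the libraries was 0.06, 0.07, 0.08 and 0.07 in these comparisons. DM replicates 2 and 3, at 5.16 and 4.99%, lay below every WT library of that batch, and DM replicate 1, at 5.68%, lay within the WT range. By library number, DM was below WT in all 3 pairs, at 5.68 against 5.93%, 5.16 against 5.83% and 4.99 against 5.59%. This pairing was inferred from the counts and is not stated by the labels. The first library of both groups was also one with a higher share of noncoding and antisense transcripts (2.45% in DM and 2.48% in WT). The difference in the ratio was not tested.

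Between the batches the WT groups themselves differed. *Abi3* was at 8.50 ± 0.44 CPM in WT mice of the first batch and 5.02 ± 0.59 CPM in those of the second (SD, n = 3), *Spi1* at 3.22 ± 0.16 and 2.73 ± 0.08 CPM, and *Cd33* at 10.02 ± 0.21 and 8.37 ± 0.95 CPM. For each of these the WT libraries of the 2 batches did not overlap, while for the others of the 10 genes they did. How many of all genes were apart between the batches was not counted, so this is not a trait of these genes. Because the batches differ, levels of groups were compared within a batch only. *Abi3* has a further limit, since 2913 of its 4153 exon bases are shared with *Zfp652* and 1708 with *Phospho1*, both on the opposite strand. No source used here states whether the counting kept the strands apart.

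Within groups the genes varied to different degrees, and some of them along with the libraries' noncoding share. The SD of log2 levels within groups was 0.19 for *Abi3*, *Plcg2* and *Cd2ap*, 0.07 for *Picalm* and *Fermt2* and 0.06 for *Spi1*. With levels centred on their group mean, the correlation with the share of long noncoding and antisense transcripts over the 15 libraries was 0.90 for *Cd2ap*, 0.84 for *Spi1* and 0.68 for *Bin1*, and -0.66 for *Picalm*, -0.65 for *Fermt2* and -0.55 for *Inpp5d*. It was 0.53 for *Plcg2*, 0.52 for *Abi3*, 0.415 for *Cd33* and 0.328 for *Ptk2b*. The same correlation is not given for all genes. The points of the 15 libraries share library, depth and scaling, so the values are descriptive. *Cd2ap* was at 36.1 to 39.5 CPM in the 4 libraries of the first batch with the higher share and at 26.6 to 31.7 CPM in the other 5, a ratio of 1.30, which crosses the genotypes. *Picalm* was at 135.4 to 145.8 CPM in the 4 and 146.0 to 158.2 CPM in the 5. Of all genes tested, 13.8% were higher in all of the 4 than in any of the 5 and 8.6% were lower in the same way.

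When the share entered the fit as a covariate, the standard error of *Cd2ap* in APP-TKI against WT mice went from 0.15 to 0.07 and its log2 fold change from 0.21 to 0.19 (adjusted p = 0.519 by edgeR's quasi-likelihood test). *Cd33* in DM against APP-TKI mice was at -0.26 (adjusted p = 0.479) in the same fit. No gene of the 10 was called in it. *Ptk2b* moved with another measure, since its correlation with summed excitatory neuron markers was 0.805 on the same 15 libraries.

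**Figure D4:**
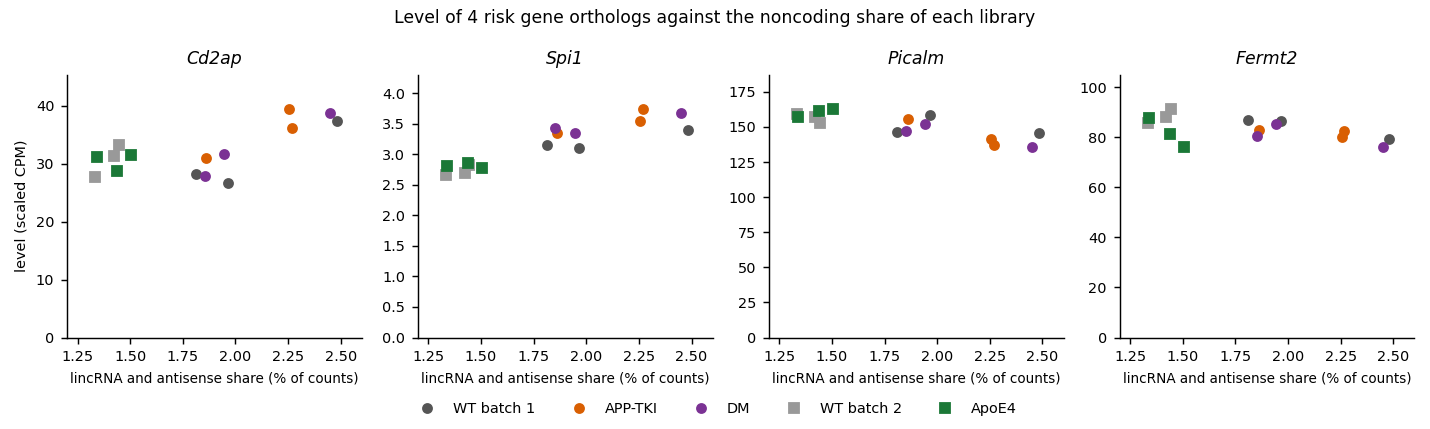
Level of *Cd2ap*, *Spi1*, *Picalm* and *Fermt2* in each library (y axis, CPM after upper-quartile scaling, starting at 0) against the share of counts in long noncoding and antisense transcripts (x axis, %), coloured by group, circles for the first batch and squares for the second. The 4 first-batch libraries at 2.26 to 2.48% have the highest *Cd2ap* levels (36.1 to 39.5 CPM) and the lowest *Picalm* levels of their batch, and they come from 3 genotypes.

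The genes of the set varied partly with each other. The highest correlations of centred log2 levels among the 10 were 0.83 between *Plcg2* and *Cd33*, 0.82 between *Bin1* and *Cd2ap* and 0.78 between *Bin1* and *Abi3*, and the lowest was -0.86 between *Picalm* and *Spi1*. Among 13551 protein-coding genes the pattern most like that of *Cd2ap* was that of *Stk38* (0.97), that of *Spi1* was most like *Slc26a6* (0.97), *Abi3* most like *Dctn1* (0.97) and *Picalm* most like *Zmym2* (0.96). *Ptk2b* was most like *Chst1* (0.95), *Bin1* most like *Plod3* (0.94), *Plcg2* most like *Dennd1c* (0.92) and *Fermt2* most like *Cisd3* (0.92). *Cd33* and *Inpp5d* had no gene above 0.89 and 0.87, the nearest being *Cry2* and *BC052040*. None of these nearest genes is a microglia marker of the list used here. Each value is the highest of 13551 over 15 libraries, and the height that unrelated genes would reach was not computed.

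None of the 10 genes lies on the chromosome of *App*. *Picalm* (ENSMUSG00000039361, chr7:90130213-90213465, plus strand) and *Cd33* (ENSMUSG00000004609, chr7:43524216-43544428, minus strand) lie on that of *Apoe*, at 70.4 and 23.8 Mb from it in GRCm38. *Cd33* had log2 fold changes of -0.27 in DM against APP-TKI mice and -0.22 in ApoE4 against WT mice, and *Picalm* had -0.0001 and 0.04. In DM against WT mice, where DM mice also carry *APOE4*, *Cd33* had -0.05 (SE 0.12) and *Picalm* -0.05 (SE 0.07). Neither passed the test. The other genes are *Bin1* (ENSMUSG00000024381, chr18:32377230-32435737), *Cd2ap* (ENSMUSG00000061665, chr17:42792951-42876665), *Ptk2b* (ENSMUSG00000059456, chr14:66153257-66281052), *Inpp5d* (ENSMUSG00000026288, chr1:87620312-87720507), *Plcg2* (ENSMUSG00000034330, chr8:117498291-117635142), *Fermt2* (ENSMUSG00000037712, chr14:45458795-45530118), *Spi1* (ENSMUSG00000002111, chr2:91082390-91115756) and *Abi3* (ENSMUSG00000018381, chr11:95830074-95842476).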

How the data were processed

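Whole-hippocampus RNA of 15 mouse libraries was sequenced as strand-specific poly(A) libraries. The authors deposited unnormalized counts of reads for each gene. Per their methods and the submitters' processing notes, reads were trimmed (Trimmomatic 0.39), aligned to a GRCm38 genome that also held the human *APOE* sequence (STAR 2.7.1a) and counted (HTSeq 0.11.2), and no source used here states the strand setting. Human and mouse *Apoe* reads stand in a single row, which therefore does not check the genotype labels.

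The tools used on these counts were edgeR 4.0.16 and DESeq2 1.42.0 in R 4.3.3, and Python 3.11.15. Of 55471 identifiers, 55144 matched a GENCODE annotation of GRCm38, of another release than the authors used. Genes with CPM above 1 in at least 3 libraries were kept and scaled by the upper quartile. The quasi-likelihood test of edgeR was fitted to the 9 libraries of the first batch, to the 6 of the second and, for the difference of effects, to all 15, with a call where the p-value, adjusted over all tested genes by Benjamini-Hochberg, was under 0.1. The 95% intervals use the fit's degrees of freedom. Total counts were 32754717 to 44630808 per library. Replicate numbers were checked for pairing by correlating same-numbered libraries' deviations from their group means. This gave 0.538, 0.265 and 0.377 for DM and WT mice, and no such agreement in other comparisons. DM and WT libraries were therefore taken as paired, although the labels do not state it. Their same-numbered libraries also had like noncoding shares (2.45 and 2.48%, 1.94 and 1.97%, 1.85 and 1.81%). The part of this share in the agreement was not tested. The alternatives were other scalings and filters, DESeq2, robust likelihood ratio tests, other sets of libraries, the replicate block, the noncoding share as a covariate, transcript length and each library left out.

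The 10 genes and the gene lists were chosen with earlier results of these data known. Named genes are the 10, their family members, up to 4 genes of each list with the smallest p in a comparison, and the genes with the most similar pattern. Of 5 red blood cell markers 4 passed the filter, with median log2 fold changes of 0.32, 0.32, -0.15 and -0.24 in APP-TKI against WT, DM against WT, DM against APP-TKI and ApoE4 against WT. The steps were tested on simulated data before use.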

Additional observations from a re-analysis of the deposited data

How the results depend on the processing

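None of the 10 genes was called in any of 470 values with all libraries kept (7 of them with the opposite sign) or of 480 with a library left out (27 with the opposite sign), and the lowest adjusted p was 0.519, 0.625, 0.479, 0.664 and 0.389 in APP-TKI against WT, DM against WT, DM against APP-TKI, ApoE4 against WT and the difference of effects. In this order the count of all genes called was 83, 179, 109, 12 and 393 without a filter, 25, 50, 18, 48 and 26 with DESeq2, and 50, 136, 53, 125 and 121 with robust likelihood ratio tests. With the replicate block, which counts as paired for DM against WT alone, it was 9, 11 and 1 in the first 3, and it changed no call of the 10. In the first 3 it was 37, 41 and 18 with the noncoding share as a covariate (1 in the difference of effects) and 3, 1 and 1 with all 15 libraries in a single fit, and with only the compared groups 30 in DM against WT and 1 in DM against APP-TKI. The cause of these counts was not tested. With a library left out the count was 0 to 3, 1 to 29, 0 to 1 and 0 to 1 in the within-batch comparisons, the 29 without APP-TKI replicate 2, 8 without APP-TKI replicate 3 and 3 in APP-TKI against WT without DM replicate 1. The median of the 10 was then -0.18 to -0.017 in DM against APP-TKI and -0.16 to -0.051 in the difference.

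*Ptk2b* in APP-TKI against WT was -0.0019 without a filter and *Cd2ap* in ApoE4 against WT 0.0067. *Inpp5d* in DM against WT was -0.00010 with median-of-ratios scaling and -0.00022 with DESeq2. In DM against APP-TKI, *Picalm* was 0.0063 without a filter and 0.0052 with filterByExpr, and *Abi3* -0.042 with the robust test. With a library left out, APP-TKI against WT spanned -0.013 to 0.11 for *Bin1*, -0.042 to 0.095 for *Ptk2b* and -0.24 to 0.050 for *Abi3*. DM against WT spanned -0.046 to 0.26 for *Cd2ap*, -0.056 to 0.11 for *Inpp5d* and -0.17 to 0.051 for *Cd33*. DM against APP-TKI spanned -0.037 to 0.056 for *Picalm*, -0.24 to 0.0041 for *Plcg2*, -0.061 to 0.022 for *Fermt2*, -0.065 to 0.016 for *Spi1* and -0.16 to 0.13 for *Abi3*. ApoE4 against WT spanned -0.032 to 0.068 for *Bin1*, -0.086 to 0.044 for *Cd2ap* and -0.041 to 0.20 for *Plcg2*. The difference spanned -0.073 to 0.020 for *Picalm*, -0.24 to 0.0055 for *Cd2ap*, -0.025 to 0.27 for *Abi3* and -0.17 to 0.049 for *Cd33*. Lengths of the longest transcript gave 109.1 RPKM for *Bin1*, 18.4 for *Picalm*, 5.71 for *Cd2ap*, 172.3 for *Ptk2b*, 2.58 for *Inpp5d*, 25.3 for *Fermt2*, 1.55 for *Spi1* and 1.64 for *Cd33*. The genes with the fewest reads per library, *Spi1* (101 to 142), *Plcg2* (162 to 263) and *Abi3* (166 to 325), had standard errors of 0.12 to 0.16 in the within-batch comparisons, against 0.04 to 0.10 for *Picalm*, *Fermt2*, *Bin1* and *Ptk2b*, but *Cd2ap*, with 865 to 1500 reads, had 0.15 in the first batch.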
